A study of Drosophila melanogaster with 18 samples.

Results

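The Y chromosome carried 9945 of the 400733 GATC sites in the count table, and every one of them is described here. Sites were taken by their chromosome label, with no use of measured values. Targeted DamID was used to record RNA polymerase II occupancy. A Dam methylase fused to a polymerase II subunit methylates GATC sites near the polymerase, and the methylated DNA is cut, amplified and sequenced. The values were counts of reads at each GATC site in 18 libraries of genomic DNA from whole Drosophila melanogaster embryos of stage 10 to 13, in 6 groups of 3.

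By the design of the study, all groups express the Dam-PolII fusion under a GAL4 driver. The sample titles name the fusion only for the Dam-PolII groups. With bap-GAL4, active in the visceral mesoderm, the groups were bap Alk.DN (UAS-Alk.DN, a dominant negative form of the receptor tyrosine kinase Alk), bap Jeb (UAS-Jeb, the Alk ligand) and bap Dam-PolII (the fusion alone). With twi2xPE-GAL4, active in the mesoderm, the groups were twi Alk.DN, twi Jeb and twi Dam-PolII. Methylation is placed in the cells in which a driver is active, while each sample was a pool of embryos of both sexes. Fewer labelled male cells and less methylation in each of them cannot be told apart in such samples. The labels give replicate numbers but no separate cultures or crosses, so p-values measure the spread between these samples.

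The Y chromosome of the fly is present in males only and is almost wholly heterochromatic. Its few protein-coding genes, among them the male fertility factors, have introns filled with repeats and are known for transcription in primary spermatocytes, a cell type that embryos lack. Much of its remaining sequence consists of satellite DNA, transposable elements and the Suppressor of Stellate repeats, Su(Ste), whose small RNAs silence the X-linked Stellate genes in the testis. A read from a repeat can be placed at any copy, so counts at repeated sites need not come from Y.

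Libraries held between 1624349 and 14095376 counts in all, of which between 3119 and 28723 lay on Y. Some libraries went against their labels or stood apart. The 23 exonic sites of jeb, the gene that UAS-Jeb overexpresses, held 389, 374 and 474 CPM (counts scaled to 1e6 per library) in the libraries labelled bap Dam-PolII. They held 8.92, 260 and 257 CPM in those labelled bap Jeb and 6.98, 361 and 628 CPM in those labelled twi Jeb, against 24.1, 11.1 and 11.6 CPM in twi Dam-PolII. Replicate 1 of either Jeb group thus lacked the excess of its own group, and the libraries labelled bap Dam-PolII carried one. The 50 exonic sites of Polr2A, a polymerase II subunit gene, held between 31.8 and 52.6 CPM in the 6 Alk.DN libraries, against between 260 and 2088 CPM in the 6 Dam-PolII libraries. At jeb the 6 Alk.DN libraries held between 12 and 28.2 CPM. Groups are named by their labels throughout, and directions that involve these libraries carry that doubt. All 7 mesoderm markers had sites, and their summed level was between 2250.1 and 3138 CPM in Alk.DN libraries, against between 3997 and 4774 CPM in Dam-PolII libraries. The markers differed in direction. Mef2, bin and Hand were lower in Alk.DN with both drivers, without overlap. The gene twi held 0.696 to 0.862 CPM per site in bap Alk.DN, above the 0.363 to 0.398 of bap Dam-PolII. Fas3 held 3.57 to 3.97 CPM per site in twi Alk.DN, above the 3.21 to 3.48 of twi Dam-PolII. Both genes were lower in Alk.DN with the other driver. The gene tin overlapped with both drivers, and the gene bap overlapped with bap-GAL4 and was lower in twi Alk.DN.

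Sequences are shown for 4 sites whose flanks occur once in the assembly, so that the flanks have no exact copy off Y there. Each run covers 100 bases of Release 6 on the plus strand, with the GATC in capitals. Site 1454923 is shown as a site named by rule for its difference in the twi libraries, and the other 3 were chosen after their values were seen.
Y site 1454923 (chrY:1454875-1454974): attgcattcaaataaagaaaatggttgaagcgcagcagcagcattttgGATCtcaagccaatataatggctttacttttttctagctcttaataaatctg
Y site 924770 (chrY:924722-924821): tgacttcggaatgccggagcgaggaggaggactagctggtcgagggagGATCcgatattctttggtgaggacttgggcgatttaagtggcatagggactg
Y site 3017907 (chrY:3017859-3017958): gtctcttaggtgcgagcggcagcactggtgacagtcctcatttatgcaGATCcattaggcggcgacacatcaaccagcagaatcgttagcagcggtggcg
Y site 3578357 (chrY:3578309-3578408): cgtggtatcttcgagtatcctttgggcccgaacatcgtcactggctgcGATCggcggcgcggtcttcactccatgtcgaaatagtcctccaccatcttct
The first has a GC content of 34%, and the others have 55%, 56% and 56%. Site 3578357 lies in an intron of ORY, and the other 3 lie outside annotated genes.

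Most Y sites had sequence that is found elsewhere. Sites were classed by the 50 bases that begin with GATC on either side. Only 1380 sites (13.9%) had flanks that both occur once in the assembly and are called single-copy here. A further 1582 sites (15.9%) had flanks repeated on Y alone, and 6937 (69.8%) had a flank that is also found on another chromosome or scaffold. Scaffolds mapped to Y but not placed in it count as off Y here, so such a flank need not lie on another chromosome. The remaining 46 flanks ran into a gap. On the other chromosome arms, between 82.1% (2R) and 90.9% (2L) of sites were single-copy.

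In position, 441 Y sites lay in exons, 2728 in introns and 6776 outside annotated genes, and 501 lay in annotated transposable elements. Lower-case, repeat-masked reference sequence held 44.0% of Y sites, against between 6.92% (2L) and 18.1% (chromosome 4) elsewhere. The spacing of sites was not unusual: the median distance to the next GATC was 226 bp on Y, against 238 bp on chromosome 4 and 184 bp on X. The median GC content within 200 bp was 41.5% on Y, against 37.5% on chromosome 4 and 46.5% on X.

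Y sites held few counts. The mean ranged between 0.0734 and 0.256 CPM per site over the 18 libraries, and chromosome 4, another chromosome rich in heterochromatin, held between 2.35 and 4.64 CPM per site. Y was lower than chromosome 4 in 18 of 18 libraries, by 12.3- to 38.7-fold (mean log2 difference -4.48 ± 0.49, SD, n = 18, permutation test, two-sided, Benjamini-Hochberg p = 2e-05 over 2 comparisons). It was lower than X in 18 of 18 libraries, by 7.85- to 29.0-fold (mean log2 difference -3.90 ± 0.58, SD, n = 18, permutation test, same p of 2e-05). This p is the smallest that the 100000 resamples can give. The libraries share their reference sequence, and the p-value concerns the libraries, not the sites.

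The difference was larger when only single-copy sites were counted on each chromosome. Single-copy Y sites held between 0.0157 and 0.112 CPM per site. This was 35.2- to 217-fold lower than at single-copy sites of chromosome 4 and 19.3- to 143-fold lower than at those of X, in 18 of 18 libraries each. The single-copy sites of Y held only between 94 and 1376 counts per library in all. A closer measure of untranscribed sequence was the 10031 single-copy sites of 2L, 2R, 3L, 3R and X that lie over 10 kb from any annotated gene. These distant sites held 6.77 to 47.7 times as much as single-copy Y sites. Y is present in males only and in a single copy, and the part of copy number in these ratios was not tested.

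**Figure D1:**
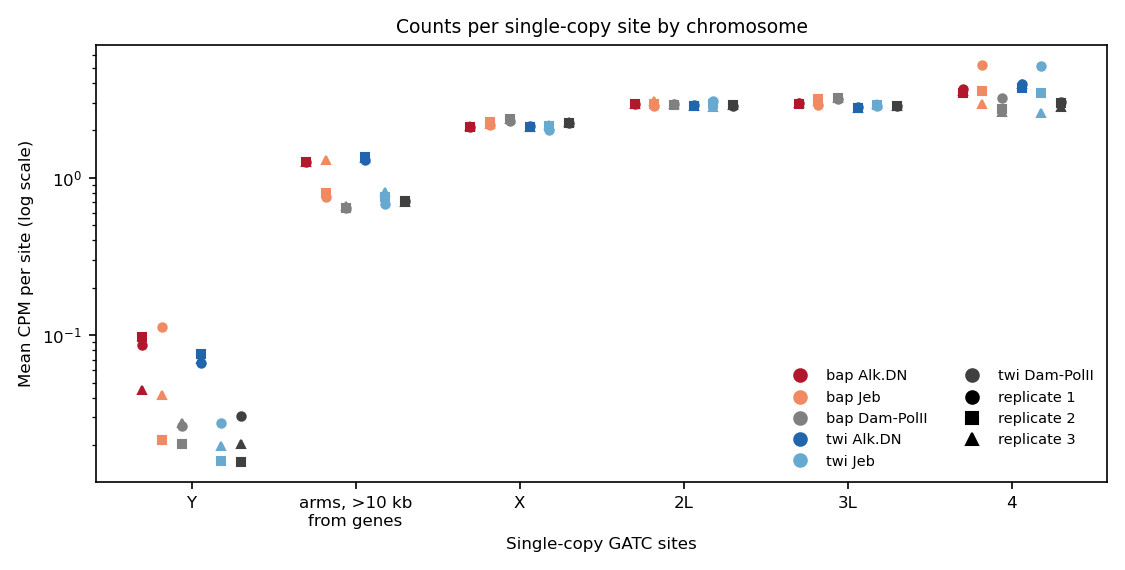
Mean CPM per single-copy GATC site (log axis) on Y, at sites of the arms over 10 kb from genes, and on X, 2L, 3L and 4. Each point is 1 of 18 libraries, coloured by group and shaped by replicate. Y lies between 0.0157 and 0.112, below every other set in every library, and both Y and the distant sites are higher in Alk.DN than in Dam-PolII.

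Few Y sites were detected in any library. The share of Y sites with at least 1 count ranged between 10.9% and 37.7%, and depth differed between libraries. Reduced by calculation to the depth of the shallowest library, 1624349 counts, the share of Y sites with counts was 12.3%, 13.1% and 10.8% in bap Alk.DN, against 7.80%, 6.31% and 6.48% in bap Dam-PolII. It was 12.4%, 13.6% and 13.5% in twi Alk.DN, against 6.90%, 6.07% and 5.44% in twi Dam-PolII. Every Alk.DN library lay above every Dam-PolII library with the same driver. At the same depth, between 21.2% and 48% of X sites had counts, and in all 18 libraries Y had the lowest share of the 7 chromosome arms. Over all 18 libraries, 3192 Y sites (32.1%) had no count, and among single-copy sites 630 (45.7%) had none. On X, 9.72% of single-copy sites had none. A site without counts was not detectable at this depth, where 3 counts are worth between 0.213 and 1.85 CPM.

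The share of a library's counts that fell on Y was higher in the libraries labelled Alk.DN. It was 0.217%, 0.254% and 0.185% in bap Alk.DN, against 0.135%, 0.110% and 0.112% in bap Dam-PolII. The groups did not overlap, and the means of 0.219% ± 0.035 and 0.119% ± 0.014 (SD, n = 3 each) differed 1.83-fold (exact permutation test, two-sided, p = 0.10, the smallest that 3 against 3 libraries allow, adjusted p = 0.20 over 4 comparisons). In the twi libraries the share was 0.184%, 0.203% and 0.204% in twi Alk.DN, against 0.0930%, 0.0771% and 0.0730% in twi Dam-PolII. These groups did not overlap either, and the means of 0.197% ± 0.011 and 0.0810% ± 0.0105 (SD, n = 3 each) differed 2.43-fold (exact permutation test, p = 0.10, adjusted p = 0.20). Exact Clopper-Pearson 95% intervals, which cover counting error only, were narrow beside these differences: 0.250% to 0.259% in bap Alk.DN replicate 2, for example. An exact permutation test of 3 against 3 libraries cannot reach a p of 0.05, so these differences were larger than the spread between replicates but could not pass a test.

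In the libraries labelled Jeb the share was 0.173%, 0.126% and 0.192% with bap-GAL4, against 0.135%, 0.110% and 0.112% in bap Dam-PolII. With twi2xPE-GAL4 it was 0.117%, 0.0850% and 0.102% in twi Jeb, against 0.0930%, 0.0771% and 0.0730% in twi Dam-PolII. The groups overlapped with either driver (exact permutation test, p = 0.20 for each, adjusted p = 0.20). Left without replicate 1, which did not show the excess at jeb, the difference of means was 0.0398 percentage points for bap and 0.0127 for twi, against 0.0446 and 0.0206 with it.

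**Figure D2:**
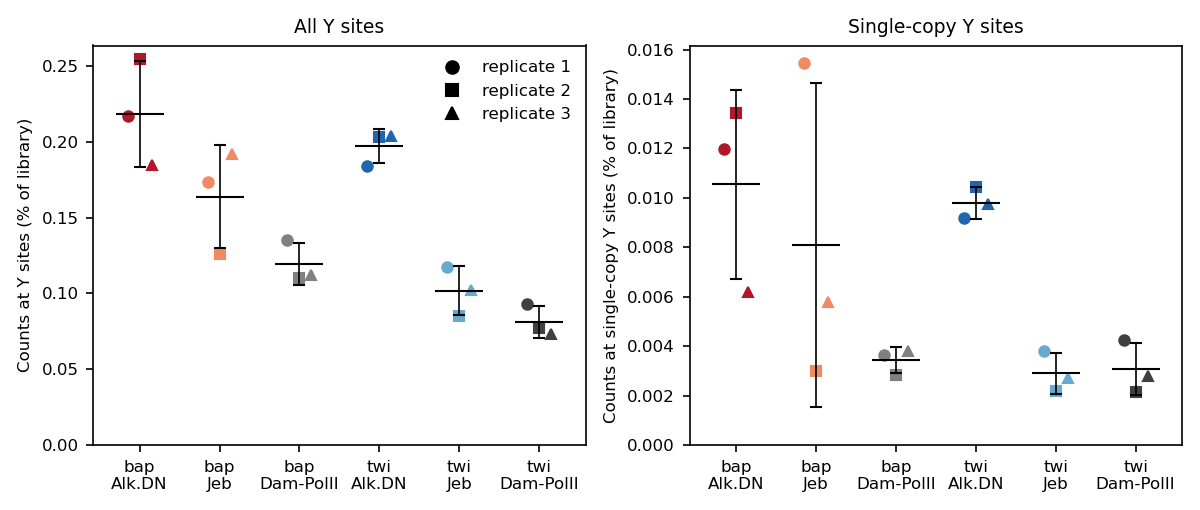
Percent of each library's counts at all Y sites (left) and at single-copy Y sites (right), by group. Points are libraries, the long line is the mean and the bars are the SD (n = 3). All 6 Alk.DN libraries lie above the Dam-PolII libraries with the same driver, and single-copy Y sites in bap Jeb are spread widely because replicate 1 is high.

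The same order held in each class of site. Flanks at single-copy sites and at sites repeated on Y alone have no exact match off Y in the assembly. Copies that differ by a base or are missing from the assembly were not looked for. Whether all counts at these sites come from Y was not tested. Counts at sites with a flank off Y may or may not come from Y. Single-copy sites held 0.0868, 0.0975 and 0.0449 CPM per site in bap Alk.DN, against 0.0265, 0.0204 and 0.0276 CPM per site in bap Dam-PolII. They held 0.0664, 0.0757 and 0.0707 CPM per site in twi Alk.DN, against 0.0308, 0.0157 and 0.0203 CPM per site in twi Dam-PolII. The groups did not overlap with either driver, and the means differed 3.08-fold and 3.19-fold (exact permutation test, p = 0.10, the smallest allowed). Sites repeated on Y alone differed 3.34-fold in bap and 3.52-fold in twi libraries, and sites with a flank also found off Y differed 1.71-fold and 2.41-fold, again without overlap. Sites shared with other sequences took between 84.0% and 94.1% of all Y counts, and the 100 highest Y sites took between 36.7% and 60.3% outside Jeb replicate 1.

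**Figure D3:**
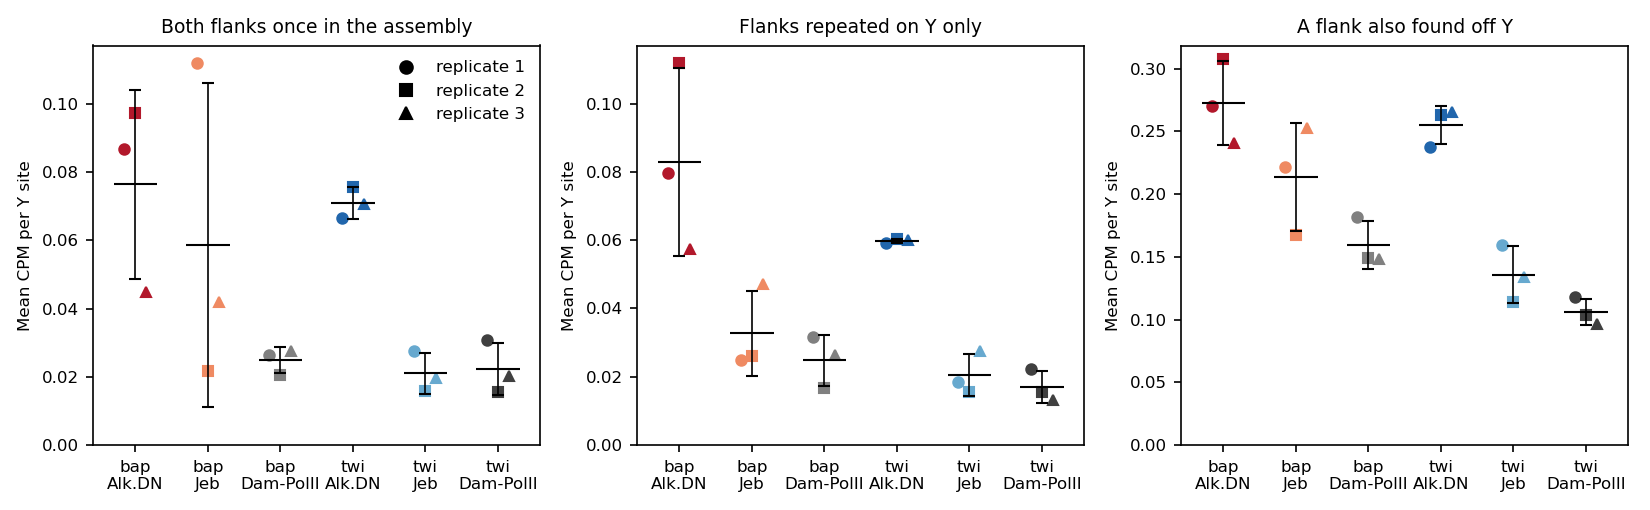
Mean CPM per Y site in sites whose flanks occur once (left), are repeated on Y only (middle) or are also found off Y (right). Points are libraries, the long line is the mean and bars are the SD (n = 3). Alk.DN lies above Dam-PolII with either driver in all 3 classes, while Jeb overlaps Dam-PolII in each class.

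By position, single-copy sites outside genes had the highest level per site in each of the 12 Alk.DN and Dam-PolII libraries, above exons and introns. Intron sites were above them in replicate 1 of bap Jeb (0.222 against 0.0359 CPM per site), replicate 2 of bap Jeb (0.0241 against 0.0227) and replicate 1 of twi Jeb (0.0404 against 0.0232). Sites outside genes held 0.152, 0.138 and 0.0741 CPM per site in bap Alk.DN, against 0.0437, 0.0310 and 0.0325 CPM per site in bap Dam-PolII. The level was 0.124, 0.132 and 0.119 CPM per site in twi Alk.DN, against 0.0538, 0.0212 and 0.0368 CPM per site in twi Dam-PolII. Single-copy exon sites held 0.0666, 0.118 and 0.0342 CPM per site in bap Alk.DN, against 0.0134, 0.0121 and 0.0262 CPM per site in bap Dam-PolII. They held 0.0232, 0.0254 and 0.0233 CPM per site in twi Alk.DN, against 0.0223, 0.00882 and 0.00412 CPM per site in twi Dam-PolII. Neither sites outside genes nor exon sites showed overlap between Alk.DN and Dam-PolII with the same driver. Single-copy intron sites held 0.0298, 0.04995 and 0.0198 CPM per site in bap Alk.DN, against 0.0141, 0.0129 and 0.0232 in bap Dam-PolII, which overlapped. The intron level was 0.0252, 0.0374 and 0.0393 CPM per site in twi Alk.DN, against 0.0109, 0.0126 and 0.00971 in twi Dam-PolII, without overlap.

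Sequence far from genes on the other arms showed the same direction. The distant single-copy sites held 1.26, 1.25 and 1.25 CPM per site in bap Alk.DN, against 0.644, 0.645 and 0.660 CPM per site in bap Dam-PolII. They held 1.30, 1.35 and 1.34 CPM per site in twi Alk.DN, against 0.714, 0.712 and 0.698 CPM per site in twi Dam-PolII. The means differed 1.93-fold and 1.88-fold, and the groups did not overlap (exact permutation test, p = 0.10). The level of single-copy Y sites, as a percent of the distant sites in the same library, was 6.92, 7.79 and 3.58 in bap Alk.DN, against 4.12, 3.17 and 4.18 in bap Dam-PolII. These overlapped (exact permutation test, p = 0.30). In twi Alk.DN it was 5.11, 5.63 and 5.29, against 4.31, 2.20 and 2.91 in twi Dam-PolII, without overlap (exact permutation test, p = 0.10). Neither difference in this percentage passed a test (exact permutation test, adjusted p = 0.60 in bap and 0.40 in twi, over 4 comparisons). Higher counts in Alk.DN were therefore not shown to be particular to Y with either driver. The part of Polr2A or of other differences between the libraries in these results was not tested.

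Markers bear on which cells could give Y signal. The spermatocyte genes, which belong to a program in which Y genes are transcribed, summed to between 29.7 and 47.0 CPM over 51 sites in bap Alk.DN, against between 6.14 and 9.62 CPM in bap Dam-PolII. They summed to between 44.3 and 49 CPM in twi Alk.DN, against between 18.9 and 19.3 CPM in twi Dam-PolII. All 6 genes of that list had sites. The 6 genes differed in level. At dj, a sperm gene, the level was no more than 0.268 CPM per site in any library, and aly, a regulator of the spermatocyte program, held no more than 0.357 CPM per site. Both overlapped with bap-GAL4 and were higher in twi Alk.DN without overlap. There dj held between 0.160 and 0.268 CPM per site, against between 0 and 0.0367 in twi Dam-PolII. The range of aly was 0.118 to 0.245 in twi Alk.DN, against 0 to 0.0917 in twi Dam-PolII. sa, which encodes a testis-specific subunit of the general transcription machinery, held between 2.65 and 4.93 CPM per site in bap Alk.DN, against between 0.828 and 1.02 in bap Dam-PolII, and between 2.84 and 3.43 in twi Alk.DN, against between 0.859 and 1.56 in twi Dam-PolII. Mst87F, a sperm tail gene with 2 sites, held between 1.34 and 3.51 CPM per site in bap Alk.DN, against between 0.114 and 0.656 in bap Dam-PolII, and between 4.60 and 5.52 in twi Alk.DN, against between 2.62 and 3.96 in twi Dam-PolII, and reached 10.0 in twi Jeb. can, another testis-specific subunit of that machinery, held between 0.312 and 0.688 CPM per site in bap Alk.DN, against between 0.0526 and 0.126 in bap Dam-PolII, and between 0.567 and 0.908 in twi Alk.DN, against between 0.0732 and 0.209 in twi Dam-PolII. At sa, Mst87F and can the Alk.DN libraries thus lay above the Dam-PolII libraries of the same driver without overlap, while betaTub85D, the testis beta-tubulin, overlapped with both drivers, at between 0.137 and 0.608 CPM per site in bap Alk.DN, against between 0 and 0.161 in bap Dam-PolII, and between 0.387 and 0.783 in twi Alk.DN, against between 0.231 and 0.643 in twi Dam-PolII. The part of these genes' signal in the Y differences was not tested. The genes trh, bam and nanos, listed for trachea and germ line, were also higher in Alk.DN without overlap. Mean CPM per site at trh was 1.12 in bap Alk.DN against 0.335 in bap Dam-PolII, and 1.03 against 0.472 with twi2xPE-GAL4. At bam it was 1.14 against 0.262 and 1.61 against 0.492, and at nanos 0.703 against 0.194 and 1.17 against 0.439. Of other listed genes, elav was lower with both drivers without overlap. The mean of grh was higher with both, 2.24 against 2.00 CPM per site in bap, with overlap, and 2.40 against 1.95 in twi, without overlap. The gene vas overlapped with bap-GAL4 and was lower in twi Alk.DN, and repo was lower in bap Alk.DN and overlapped with twi2xPE-GAL4. The 3 genes of male dosage compensation differed in direction. msl-2, which encodes a protein of the dosage compensation complex, held between 0.921 and 1.52 CPM per site in bap Alk.DN, against between 0.369 and 0.820 in bap Dam-PolII, and between 1.42 and 1.61 in twi Alk.DN, against between 0.671 and 0.996 in twi Dam-PolII, so it was higher in Alk.DN without overlap. roX1, a noncoding RNA of that complex, overlapped with both drivers, at between 1.43 and 3.66 CPM per site in bap Alk.DN, against between 1.51 and 1.66 in bap Dam-PolII, and between 1.07 and 1.62 in twi Alk.DN, against between 1.04 and 2.03 in twi Dam-PolII. roX2, the other such RNA, was lower in Alk.DN: it held between 4.24 and 8.09 CPM per site in bap Alk.DN, against between 29.4 and 46.9 CPM per site in bap Dam-PolII, and between 6.70 and 8.28 in twi Alk.DN, against between 38.9 and 45.5 in twi Dam-PolII. The part of the share of males in each pool was not tested.

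The 12 single-copy protein-coding genes of Y lay close to the limit of detection at their exons. Across the 179 single-copy exon sites of these genes, 291 counts were found in all 18 libraries together, and WDY has no such site. The counts were 32, 13 and 31 in bap Alk.DN, against 5, 7 and 25 in bap Dam-PolII, and 17, 30 and 51 in twi Alk.DN, against 5, 6 and 1 in twi Dam-PolII. In bap Jeb they were 17, 3 and 0, and in twi Jeb 5, 10 and 33. Per exon site this is between 0 and 0.0338 CPM. The bap groups overlapped in this count. Of the 32 and 31 counts in bap Alk.DN replicates 1 and 3, 15 and 18 came from kl-2 alone.

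kl-2, kl-3 and kl-5 encode dynein heavy chains of the sperm axoneme, the motors of the flagellum. kl-2 (Y, positions 573088 to 664173, plus strand) held 7.18, 11.5 and 5.74 CPM at its 104 single-copy sites in bap Alk.DN, against 0.729, 1.59 and 0.986 CPM in bap Dam-PolII. It held 3.16, 4.62 and 5.32 CPM in twi Alk.DN, against 1.32, 1.22 and 0.732 CPM in twi Dam-PolII. Neither pair of groups overlapped. In a fit over single-copy sites alone, added after the data had been seen, kl-2 was higher in bap Alk.DN (log2 fold change 2.34, SE 0.67, edgeR quasi-likelihood test, adjusted p = 0.0079) and was not called in twi (1.43, SE 0.59, adjusted p = 0.072).

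kl-3 (positions 336381 to 563165, plus strand) held 1.51, 2.34 and 2.10 CPM at its 222 single-copy sites in bap Alk.DN, against 3.35, 3.41 and 8.48 CPM in bap Dam-PolII. It held 6.23, 9.56 and 9.44 CPM in twi Alk.DN, against 1.82, 1.93 and 2.56 CPM in twi Dam-PolII. The libraries of either driver did not overlap, but the order was opposite. On single-copy sites alone neither comparison was called (log2 fold change -1.86, SE 0.67, edgeR adjusted p = 0.030 in bap, and 1.43, SE 0.44, adjusted p = 0.021 in twi). At its exons, kl-3 had no count in any of the 3 bap Alk.DN libraries, against 3, 0 and 22 in bap Dam-PolII, and 17, 8 and 22 in twi Alk.DN, against 0, 1 and 0 in twi Dam-PolII. The bap difference at the exons rests on replicate 3 of bap Dam-PolII.

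kl-5 (positions 22250 to 137486, minus strand) held 3.02, 5.61 and 2.68 CPM at 159 single-copy sites in bap Alk.DN, against 0, 0.455 and 2.96 CPM in bap Dam-PolII. It held 1.44, 2.73 and 2.48 CPM in twi Alk.DN, against 1.49, 1.83 and 1.10 CPM in twi Dam-PolII. The groups overlapped with either driver, and kl-5 was not called in either fit. Its 52 exon sites held 19 counts in 18 libraries.

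ORY, a fertility gene that encodes a coiled-coil protein (positions 3561745 to 3618339, plus strand), had one exception to the low level of Y. Its 75 single-copy sites held 105 CPM in bap Jeb replicate 1 and 15.5 CPM in twi Jeb replicate 1, against no more than 8.0 CPM in any other library. Site 3578357, shown above, accounted for this: 97.0 CPM in bap Jeb replicate 1, with 1.69 and 3.69 in the other bap Jeb libraries, and 15.0 CPM in twi Jeb replicate 1, with 0 and 1.16 in the other twi Jeb libraries. Dam-PolII libraries held no more than 1.97 CPM there. That single site made up 62.7% of the single-copy Y counts of bap Jeb replicate 1 and 39.2% of those of twi Jeb replicate 1. Without it, single-copy Y sites held 0.0418 and 0.0168 CPM per site in these libraries. Both are the libraries that did not show an excess at jeb. They also differed in the bases at fragment ends. Site 3578357 lies between 2 fragments that have a purine (A or G) next to the GATC at both ends. Sites with no such fragment held 14.5% of chromosome arm counts in bap Jeb replicate 1 and 12.9% in twi Jeb replicate 1. In the other libraries they held 54.3% to 60.5%. The part of this difference in the level at ORY was not tested.

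The other listed genes were mostly at or near 0. CCY, which encodes a coiled-coil protein (positions 3649996 to 3666928, plus strand), had 42 counts at 29 sites over all 18 libraries. ARY, an aldehyde reductase gene (702430 to 704048), had 6 counts, FDY (3022289 to 3024024) had 68 counts, and Pp1-Y2, a protein phosphatase gene (3539437 to 3540722), had 1 count. Pp1-Y1, the related phosphatase gene (9833 to 10786), held 14, 7 and 0 counts at its 4 sites in bap Alk.DN, against 0, 0 and 0 in bap Dam-PolII. It held 0, 0 and 3 counts in twi Alk.DN, against 0, 0 and 0 in twi Dam-PolII. No fold change is given for these genes, since they did not pass the filter on low counts. Mst77Y, a family of copies of a sperm nuclear protein gene, has 5 annotated members on Y, of which 1 has sites, and its 2 sites held at most 7 counts in any library.

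**Figure D4:**
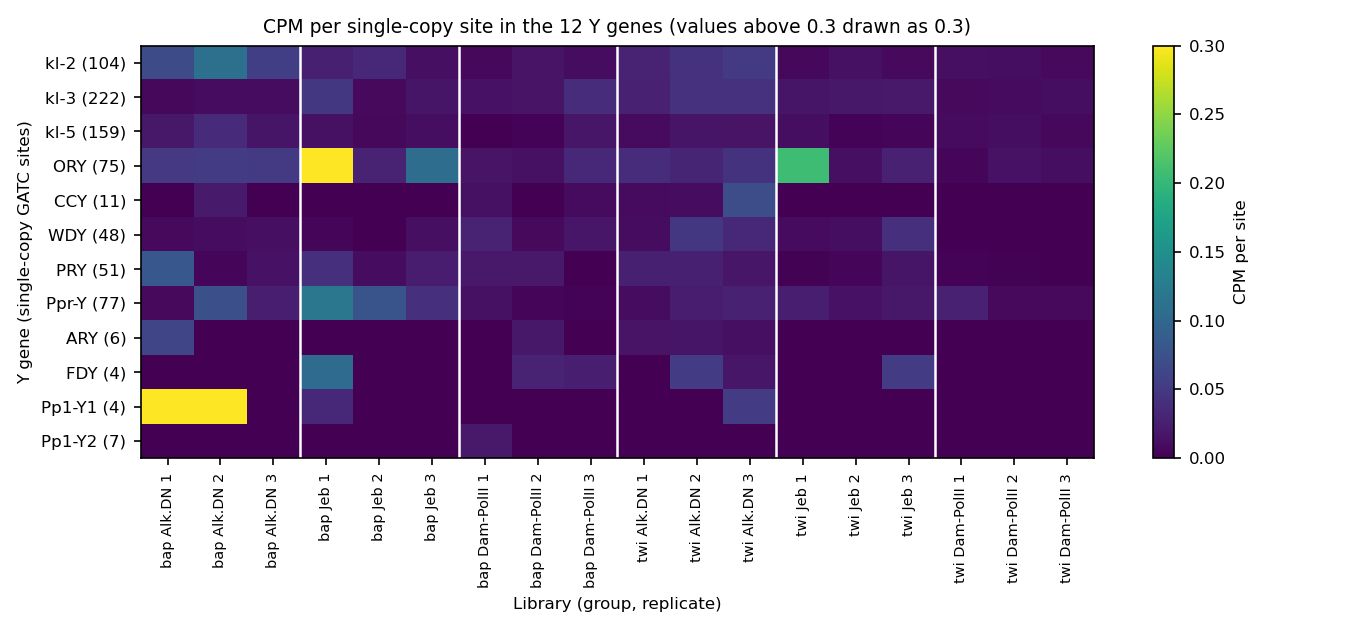
CPM per single-copy site in each of the 12 Y genes (rows, number of sites in brackets) in each of the 18 libraries (columns, by group and replicate). The colour scale runs between 0 and 0.3, with higher values drawn as 0.3, and ORY stands out in Jeb replicate 1 and Pp1-Y1 in bap Alk.DN replicates 1 and 2, while most cells lie near 0.

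Counts over all sites of a gene, repeats in introns included, gave another picture. Of the 12 genes, 7 passed the filter and were tested for each driver. In the bap libraries none of the 7 was called, while 36.3% of all 12634 genes tested were called (edgeR quasi-likelihood test, adjusted p under 0.01). In the twi libraries 4 of the 7 were called, all higher in twi Alk.DN, while 29.1% of all 14509 genes tested were called and 10.5% were called higher. The median log2 fold change of the 7 was 0.21 in the bap and 0.71 in the twi comparison. Genes passed this filter mainly on repeat counts, so these figures describe the genes and do not support a direction.

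The 4 genes were Ppr-Y, kl-3, WDY and PRY. Ppr-Y (positions 1636574 to 1884846, plus strand) held 122, 132 and 131 CPM over 802 sites in twi Alk.DN, against 50.5, 55.2 and 51.8 CPM in twi Dam-PolII (log2 fold change 0.71, SE 0.11, edgeR adjusted p = 0.00036). WDY, which encodes a WD-repeat protein (2273422 to 2487777, plus strand), held 66.0, 75.2 and 78.4 CPM over 603 sites in twi Alk.DN, against 26.1, 32.0 and 26.6 CPM in twi Dam-PolII (0.79, SE 0.16, edgeR adjusted p = 0.0017). kl-3 held 56.1, 69.5 and 64.0 CPM over 679 sites in twi Alk.DN, against 19.8, 18.4 and 24.5 CPM in twi Dam-PolII (1.02, SE 0.17, edgeR adjusted p = 0.00056). PRY (146092 to 192020, minus strand) held 9.40, 9.98 and 13.3 CPM over 133 sites in twi Alk.DN, against 3.14, 2.54 and 2.07 CPM in twi Dam-PolII (1.51, SE 0.39, edgeR adjusted p = 0.0089). Single-copy sites gave 2.10% of the counts of Ppr-Y, 1.52% of WDY, 14.4% of kl-3 and 12.4% of PRY. In a fit over those sites alone WDY and PRY did not pass the filter, kl-3 was not called (above), and Ppr-Y had a log2 fold change of -0.01 (SE 0.83, adjusted p = 0.99).

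The effect of Alk.DN on Ppr-Y differed between drivers in the test of the difference itself. Ppr-Y held 114, 152 and 121 CPM in bap Alk.DN, against 104, 84.8 and 87.2 CPM in bap Dam-PolII (log2 fold change -0.04, SE 0.17, edgeR adjusted p = 0.86). The interaction of driver and Alk.DN was 0.93 (SE 0.20, edgeR adjusted p = 0.0022). It was of similar size at kl-3 (0.93), WDY (0.90) and kl-2 (0.86), with edgeR adjusted p of 0.037, 0.017 and 0.033. All 7 listed genes tested had a positive interaction and 1 was called, while 1457 of all 14973 genes tested were called. The count of 4 became 2 without twi Alk.DN replicate 3, and in the bap comparison it became 1 without bap Alk.DN replicate 3. The sign of Ppr-Y in the bap libraries turned under scaling to total counts (0.57, adjusted p = 0.0085). Such scaling moved the median log2 fold change of all sites tested to 0.42 in bap and 0.78 in twi, against 0.03 and 0.26 with TMM scaling, and values here are from TMM.

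Su(Ste) repeats lay above bap Dam-PolII in every bap Alk.DN library and overlapped between the twi groups. The 27 annotated Su(Ste) genes, 24 of which have sites, held 92.4, 145 and 51.8 CPM over 85 sites in bap Alk.DN, against 9.62, 14.4 and 17.9 CPM in bap Dam-PolII. The groups did not overlap, and the means differed 6.88-fold (exact permutation test, p = 0.10). With twi2xPE-GAL4 they held 18.4, 24.1 and 18.3 CPM in twi Alk.DN, against 37.2, 12.8 and 10.0 CPM in twi Dam-PolII, which overlapped (1.01-fold, exact permutation test, p = 1.0). In bap Jeb they held 9.06, 32.8 and 80.6 CPM and in twi Jeb 3.8, 17.3 and 28.5 CPM, and both overlapped with their Dam-PolII libraries. At the 25 sites whose flanks lie on Y only, the sum was 18.9, 34.2 and 4.78 CPM in bap Alk.DN, against 2.19, 2.16 and 3.65 CPM in bap Dam-PolII, again without overlap.

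Of the 27 Su(Ste) genes, 14 passed the filter in the bap comparison and 4 were called, all higher in bap Alk.DN, while 16.5% of all genes tested were called higher. The median log2 fold change of the 14 was 2.31. The number called was 1 without replicate 1 of bap Dam-PolII, 2 without replicate 2 or 3 of bap Dam-PolII or replicate 1 or 2 of bap Alk.DN, 4 without replicate 3 of bap Alk.DN, 2 with a replicate block and 0 with all 18 libraries in one fit (9 at an unadjusted p under 0.05), against 10 with total counts, and each Su(Ste) gene tested had a positive fold change in each of these fits. Su(Ste):CR42422 is one of the 4 (log2 fold change 2.99, SE 0.64, edgeR adjusted p = 0.0011). In the twi comparison 8 passed the filter, none was called (0 at an unadjusted p under 0.05), and the median was -0.49, or 0.14 with total counts. The difference between the drivers was tested as an interaction of driver and Alk.DN in edgeR. Of 16 Su(Ste) genes tested, 0 were called, while 1457 of all 14973 genes tested were called. At an unadjusted p under 0.05 there were 6, and the median log2 difference, twi minus bap, was -2.65. The contrast between the drivers thus did not pass the test. The copies are near-identical, so how the reads were split between them is uncertain. Replicate 3 of bap Jeb, the shallowest library, lay near bap Alk.DN for these repeats.

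**Figure D5:**
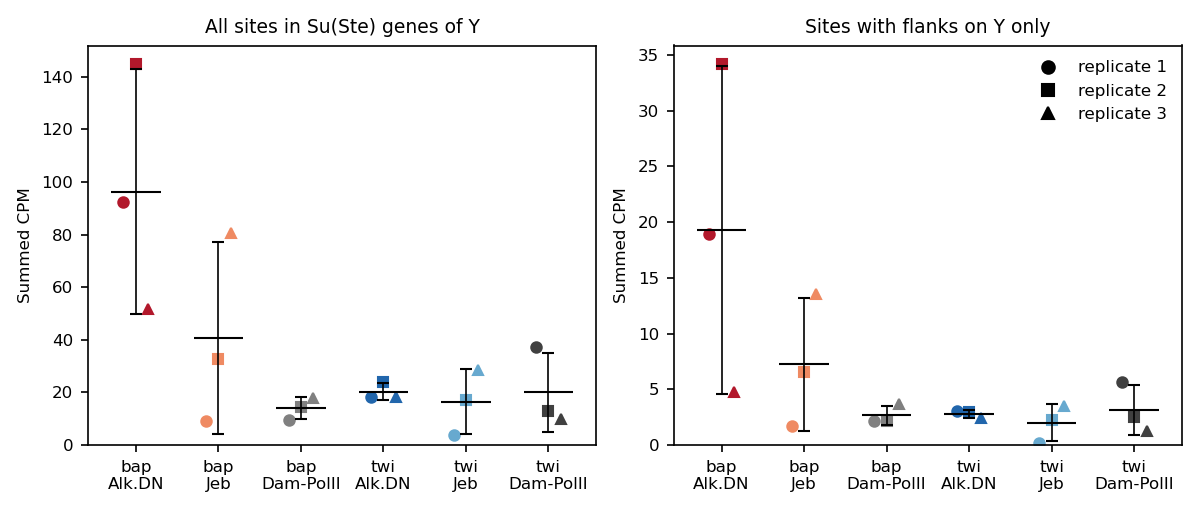
Summed CPM at all sites in the Su(Ste) genes of Y (left) and at those sites whose flanks occur on Y only (right), by group. Points are libraries, the long line is the mean and bars are the SD (n = 3). bap Alk.DN lies between 51.8 and 145 on the left, above the 9.62 to 17.9 of bap Dam-PolII, and twi Alk.DN overlaps twi Dam-PolII.

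Repeats held more than the single-copy sites of genes once the highest of these was left out. The 768 single-copy sites in the 12 protein-coding genes held 0.0308, 0.0411 and 0.0229 CPM per site in bap Alk.DN, against 0.0118, 0.0109 and 0.0211 CPM per site in bap Dam-PolII. They held 0.0215, 0.0328 and 0.0344 CPM per site in twi Alk.DN, against 0.00946, 0.00885 and 0.00762 CPM per site in twi Dam-PolII. The groups did not overlap with either driver. The 501 sites in annotated transposable elements held between 0.309 and 0.725 CPM per site over all 18 libraries, which was 12.1 to 44.5 times the level at single-copy gene sites without the highest one, in 18 of 18 libraries. The 85 sites in Su(Ste) genes held between 0.0447 and 1.70 CPM per site, or 2.25 to 47.2 times that level, again in 18 of 18 libraries. With the highest gene site kept, Su(Ste) lay below single-copy gene sites in bap Jeb replicate 1 (0.107 against 0.174 CPM per site). All sites of the 12 genes, intron repeats included, held between 0.0465 and 0.207 CPM per site. Su(Ste) lay below them in bap Jeb replicate 1 (0.107 against 0.207) and twi Jeb replicate 1 (0.0447 against 0.118). Reads from repeats can come from copies on any chromosome, and these ratios are descriptions.

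Transposable element families differed in which libraries were high. The 197 sites in the 57 annotated copies of 1360, a DNA transposon, held 97.9, 134 and 81.5 CPM in bap Alk.DN, against 80.7, 63.5 and 57.1 CPM in bap Dam-PolII. The level was 78.3, 78.8 and 87.5 CPM in twi Alk.DN, against 45.7, 43.0 and 35.8 CPM in twi Dam-PolII. The 26 sites in the copy of mdg1, a retrotransposon with long terminal repeats, held 32.7, 30.6 and 36.7 CPM in bap Alk.DN, against 12.1, 9.89 and 10.1 CPM in bap Dam-PolII. They held 29.2, 26.5 and 26.0 CPM in twi Alk.DN, against 6.27, 8.52 and 8.90 CPM in twi Dam-PolII. Both families were higher in Alk.DN without overlap for either driver. The 21 sites in S elements, DNA transposons, went in opposite directions: 17.2, 17.5 and 11.3 CPM in bap Alk.DN, against 26.4, 27.0 and 27.5 CPM in bap Dam-PolII, but 18.6, 16.4 and 18.3 CPM in twi Alk.DN, against 7.93, 6.80 and 5.61 CPM in twi Dam-PolII. These families were chosen for display after their values were seen, and no test was run on them.

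The highest Y sites carried sequence of a transposable element. Sites 1340437, 1761480, 761067 and 2874489 held means of 26.0 to 28.9 CPM over the 18 libraries and share their flanks with 43 sites on other arms, of which 33 lie in annotated copies of Doc, a retrotransposon without long terminal repeats. The 4 Y copies are not in annotated Doc elements themselves. The 4 Y copies held 26.9 ± 1.32 CPM and the 43 copies elsewhere 24.8 ± 4.70 CPM (mean over libraries, SD over sites). Site 1761480 lies in an intron of Ppr-Y. At site 1340437 the level was 32.9, 33.7 and 30.2 CPM in bap Alk.DN, against 38.3, 36.6 and 33.8 CPM in bap Dam-PolII. The level was 26.6, 25.9 and 28.2 CPM in twi Alk.DN, against 12.7, 15.6 and 11.5 CPM in twi Dam-PolII. Neither comparison was called (adjusted p = 0.051 and 0.084, edgeR). Over 527 groups of sites with identical 100-base flanks on Y and on another arm, the mean CPM on Y and elsewhere were correlated across groups (Pearson r = 0.90, Spearman rho = 0.88). Reads from identical flanks cannot be told apart, and how they were placed is not given. Agreement here and at the Doc copies can therefore follow from read placement alone. Groups of sites also share libraries and base composition, so the correlation is a description. Among the 78 groups with a mean of at least 1 CPM on either side, the median ratio of Y to the other arms was 0.94 (quartiles 0.40 and 1.18).

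Tested one by one, 156 of the 9945 Y sites (1.57%) passed the filter in the bap comparison and 297 (2.99%) in the twi comparison, so the calls concern a small and repeat-rich subset. In the bap comparison 38 Y sites were called (24.4% of those tested, while 20.4% of all 71052 sites tested were called). Of these, 25 were higher and 13 were lower in bap Alk.DN, which is 16.0% and 8.33% of the Y sites tested, against 8.16% and 12.3% of all sites. In the twi comparison 15 Y sites were called, all higher in twi Alk.DN (5.05%, while 11.1% of all 116694 sites were called, 2.67% higher and 8.43% lower). With scaling to total counts the bap calls were 35 higher and 11 lower, and the twi calls were 48, all higher. In the bap comparison 36 of the 38 called sites, and in the twi comparison 11 of the 15, had a flank also found off Y. Off Y includes scaffolds. Site 887761 had no copy of either flank on 2L, 2R, 3L, 3R, 4 or X and was still in this class. The counts depended on single libraries. The bap count was 10, 12 and 14 without bap Dam-PolII replicate 1, 2 or 3 and 19 without bap Alk.DN replicate 2, and the twi count was 2 without any of the 3 twi Alk.DN libraries.

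By the smallest adjusted p, the sites called higher in bap Alk.DN were 988521, 854930, 887761 and 1435349, all outside annotated genes. Site 988521, whose flank has 37 copies, held 14.7, 15.9 and 18.7 CPM in bap Alk.DN, against 0.729, 0.568 and 0.789 CPM in bap Dam-PolII (log2 fold change 4.14, SE 0.45, edgeR adjusted p = 3.4e-05). It was also called in the twi comparison, with 14.4, 16.2 and 15.1 CPM in twi Alk.DN, against 1.82, 2.54 and 2.80 CPM in twi Dam-PolII (2.13, SE 0.28, edgeR adjusted p = 0.00047). Site 854930 is a repeat with 42 copies of one flank on Y, and it held 8.69, 11.2 and 5.35 CPM in bap Alk.DN, against 0.437, 0.455 and 0.296 CPM in bap Dam-PolII. It held 1.44, 2.00 and 2.48 CPM in twi Alk.DN, against 0.660, 1.42 and 2.07 CPM in twi Dam-PolII.

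Site 1454923 was the single-copy site named in the twi comparison. It held 7.0, 6.72 and 5.96 CPM in twi Alk.DN, against 0, 0.203 and 0.122 CPM in twi Dam-PolII (log2 fold change 5.12, SE 0.67, edgeR adjusted p = 0.00044). In bap Alk.DN it held 5.86, 0 and 0.765 CPM, against 0.291, 0 and 0 CPM in bap Dam-PolII, and it was not tested there. Sites 1435349 and 1426212 were the others named as higher in twi Alk.DN. The single-copy site 924770, called in the bap comparison, held 8.31, 3.51 and 7.46 CPM in bap Alk.DN, against 0.874, 0.227 and 0.296 CPM in bap Dam-PolII (3.42, SE 0.74, edgeR adjusted p = 0.0037).

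The sites called lower in bap Alk.DN with the smallest adjusted p were 1171484, 3017472, 1206061 and 1151470. Sites 1171484 and 1151470 have flanks with 9 copies, and 1171484 held 0.756, 0.234 and 0.956 CPM in bap Alk.DN, against 11.7, 8.07 and 8.78 CPM in bap Dam-PolII (log2 fold change -4.17, SE 0.57, edgeR adjusted p = 0.00018). Both border fragments of 742 and 624 bp. Site 1206061 also has a flank with 9 copies and borders a 624 bp fragment. These sites may therefore be copies of one repeat and are not counted as independent. Site 3017472 has a flank with 223 copies. Its single-copy neighbour 3017907 held 0, 0 and 0 CPM in bap Alk.DN, against 4.52, 3.98 and 1.58 CPM in bap Dam-PolII, at least 15.7-fold lower with a floor of 3 counts over the group. It held 0.384, 0.525 and 0.426 CPM in twi Alk.DN, against 0, 0.101 and 0 CPM in twi Dam-PolII. Sites 3017472 and 3017907 are the 2 ends of one 435 bp fragment, and 3017907 was not tested in the bap comparison. At all 5 sites the twi Dam-PolII libraries held no more than 0.203 CPM, and the high values were in the libraries labelled bap Dam-PolII, which also carried the excess at jeb.

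In the comparisons of Jeb with Dam-PolII no Y site was called among 123 tested with bap-GAL4 and 111 with twi2xPE-GAL4, and 0 of all 61039 and 76594 sites tested were called (0% each, edgeR quasi-likelihood test). At an unadjusted p under 0.05, 27 Y sites were higher and 6 lower in bap Jeb, and 13 were higher and 1 lower in twi Jeb. Without Jeb replicate 1, 2 Y sites were called in the bap comparison and 0 in the twi comparison. The interaction of driver and Alk.DN was called at 11 of 383 Y sites (2.87%, while 2.01% of all 131056 sites tested were called), 8 with a positive difference (twi minus bap) and 3 with a negative one. With scaling to total counts there were 4 of each. The count of 11 was 1, 2 and 3 without bap Dam-PolII replicate 1, 2 or 3, and 4, 5 and 3 without twi Alk.DN replicate 1, 2 or 3. It was 5 without bap Alk.DN replicate 1 or twi Dam-PolII replicate 1. Among the positive calls, 1340437, 1340074, 761067 and 761430 lie at ends of 363 bp fragments of repeated sequence. These calls are therefore not independent.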

How the data were processed

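Dam-PolII methylation was measured in 18 libraries of 6 groups. The authors mapped reads with Bowtie2 to FlyBase Release 6 and deposited whole-number counts per GATC site; how reads with several positions were placed is not given in the sources used here. The deposited peak tables hold the authors' own comparisons and were not used. Depth was between 1624349 and 14095376 counts. Counts were scaled to CPM of the library total. Sites and gene sums were tested with edgeR 4.0.16 in R 4.3.3 (filterByExpr with min.count 10, TMM, quasi-likelihood test, Benjamini-Hochberg over all features tested, adjusted p under 0.01). Shares were compared by exact permutation of libraries (scipy 1.17.1). Intervals are 95% Clopper-Pearson, and a count of 0 was given a floor of 3 counts. Both cover counting error only, since PCR reads are not independent molecules. Flanks were read from the Release 6 assembly of RefSeq.

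Members and lists were chosen with earlier results of these data known. Names printed are the 12 single-copy protein-coding Y genes, the Mst77Y and Su(Ste) families, for each Alk.DN comparison up to 4 called Y sites per direction, ranked by adjusted p, and the 5 Y sites with the highest mean. Sites 3578357, 924770 and 3017907 and the transposable element families were chosen after their values were seen. One bap Alk.DN library had an unrelated title and was grouped by its expression label. The fits were tested on simulated data. Alternatives were other scalings, filters, thresholds, tools, sample sets and flank lengths, a replicate block, and leaving out each library.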

Additional observations from a re-analysis of the deposited data

Results flagged for a closer look

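The effect of Alk.DN differed between drivers, by the interaction test (edgeR, adjusted p under 0.01), for Ppr-Y over all its sites, with a log2 difference (twi minus bap) of 0.93. It also differed at Y sites 1340437 (1.32), 761067 (1.33), 1340074 (1.62) and 3017907 (10.81). The last site had 0 counts in the 3 bap Alk.DN libraries, so its value depends on the prior count of the fit and is no measure of size. Ppr-Y was called in the twi comparison and not in the bap comparison. The first 3 of these sites were not called in either comparison alone (edgeR adjusted p of 0.084, 0.090 and 0.015 in twi). Those 3 sites lie at ends of 363 bp fragments, and 1340437 and 1340074 are the 2 ends of one fragment. A flank has 98 copies at 1340437 and 761067 and 85 copies at 1340074. Reads from such repeats can come from copies elsewhere, so the 3 sites are not independent results about Y. Of the 7 listed genes tested for the interaction, Ppr-Y was the 1 called, while 1457 of all 14973 genes tested were called. The libraries labelled bap Dam-PolII carry an excess at jeb. Its part in these differences was not tested.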

How the results depend on the processing

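The number of Y sites called in the bap comparison of Alk.DN with Dam-PolII was 38. It was 66 at an adjusted p under 0.05, 7 with min.count 50, 5 with all 18 libraries in one fit and 21 with a replicate block, and between 10 and 31 with 1 library left out. The 15 calls in the twi comparison became 49 at an adjusted p under 0.05, 48 with total counts, 29 with every site that had 1 count, 24 with limma-voom, 34 with DESeq2, 0 with all 18 libraries in one fit and 4 with a replicate block, and between 2 and 14 with 1 library left out. In the bap Jeb comparison, leaving out 1 library gave between 0 and 2 calls. The 11 interaction calls became 4 with a replicate block and between 1 and 10 with 1 library left out. Same-numbered libraries did not deviate together, so the numbers were not taken as pairs. Of the listed genes, the 0 called in the bap comparison became 3 with total counts and 1 on single-copy sites alone, and between 0 and 1 with 1 library left out. The 4 called in the twi comparison became 0 with all 18 libraries in one fit and 0 on single-copy sites alone, and between 2 and 4 with 1 library left out. Ppr-Y in the twi comparison turned to a log2 fold change of -0.0098 on single-copy sites alone, where few of its counts lie. The Y share of counts differed by 0.0993 percentage points in the bap and 0.116 in the twi comparison of Alk.DN, and by between 0.0814 and 0.116 and between 0.112 and 0.123 with 1 library left out. The twi Jeb difference turned to -0.000165 percentage points on single-copy sites. Flanks of 25 bases left 8.72% and flanks of 100 bases 20.5% of Y sites as single-copy. Apart from changes that follow from fewer sites or samples, the cause was not tested. Single-copy Y sites held between 94 and 1376 counts per library and sites repeated on Y alone between 121 and 1338, which limits the precision of both.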
